A study of Ovis aries with 24 samples.

Results

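Heat shock proteins and their co-chaperones were described in skeletal muscle of lambs that carry or lack the callipyge mutation, a single-base change that enlarges certain muscles after birth when it comes from the father alone. The members were the gene symbols of the platform annotation that begin with HSP and a family letter or number (HSPA, HSPB, HSPD, HSPE, HSPH, HSP90), with DNAJ, or that read CCT2 to CCT8 or BAG1 to BAG6. This gave 59 of 9155 symbols, read from 91 probe sets. Each gene was read on its probe set of highest mean signal, and 55 of the 59 passed the filter on dim probe sets. The 4 that did not were BAG4, DNAJC6, DNAJC22 and HSPBAP1.

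RNA came from Dorset/Suffolk/Rambouillet cross-bred sheep and was hybridised to a bovine Affymetrix array. The groups at 11 to 12 weeks of age (T12) were supraspinatus (SS), a shoulder muscle, of CN and NN lambs, the hind limb muscles SM and ST of NN lambs, and longissimus dorsi (LD), a back muscle, of CN, CC, NC and NN lambs. The groups within 5 days of birth (T0) were LD of the same 4 genotypes. CN is the paternal heterozygote, the genotype with the callipyge trait, CC the homozygote, NC the maternal heterozygote and NN the wild type, so CN, CC and NC all carry the mutation. The labels give conflicting full names for the muscle coded SM. Some descriptions of T12 samples also carry the word birth, and the age codes of the titles were followed. Each of the 12 groups has 2 arrays that the labels call technical replicates, and they were averaged to 1 group value. For LD the labels' protocol counts 8 male lambs, 4 of each genotype, which does not match the 4 genotypes on the arrays. How many lambs stand behind an array group, and the day of birth sampling in each genotype, are therefore not known here, and animal, age in days and genotype cannot be told apart. The p-values measure the spread between group values.

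Chaperones bind unfolded stretches of other proteins and keep them from clumping until they fold. HSP70 proteins bind and release such stretches in a cycle driven by ATP. J-domain proteins (DNAJ) start it, and nucleotide exchange factors (HSP110 and many BAG proteins) end it. HSP90 finishes the folding of kinases and receptors, the ring-shaped chaperonin CCT folds actin and tubulin, and its mitochondrial counterpart is built of HSPD1 and HSPE1. Small heat shock proteins hold damaged proteins without ATP and are abundant in striated muscle, where BAG3 and HSPB8 work at the Z disc, the anchor of the thin filaments.

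Signals are the MAS5 values of the deposited table, on a linear scale, and a difference is given as log2 with the standard error (SE) of the limma fit over all 15613 tested probe sets. A gene was said to rise or fall where the Benjamini-Hochberg adjusted p over those probe sets was under 0.05. Median signal was 47.4 to 59.7 per array. The 2 arrays of a group differed by a median of 0.204 (log2) over the members, against 0.336 over all tested probe sets. The muscle label held, with slow and fast fibre markers among the bright probe sets of all groups, summing over 5 measured markers each to signals of 54322 to 148830 and 106682 to 169001. In such bulk samples fewer cells of a type and less RNA per cell cannot be told apart.

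Across the 12 groups the highest group value was a median of 2.05 times the lowest for the 55 tested members, against 2.47 times for all tested probe sets. The latter include the dimmer probe sets of a gene and those without a symbol, so the 2 sets are unlike. The mitochondrial pair varied little. HSPE1 differed 1.24-fold between its extreme groups and HSPD1, its ring partner, 1.49-fold. The constitutive HSP70 protein of the cytosol, HSPA8, differed 1.79-fold, with its lowest value, 3976, in SS of NN and its highest, 7110, in LD of NC at T0. At the other end DNAJA4, a J-domain partner of cytosolic HSP70, ranged 4.81-fold and HSP90B1, the HSP90 of the endoplasmic reticulum, 4.70-fold. BAG5 ranged 6.32-fold, but its lowest value, 17.2 in SS of NN, was under the lowest array median and came from arrays at 52.2 and 5.70. By family the median range was 2.78-fold in CCT, 2.27-fold in BAG, 2.20-fold in DNAJ B, 2.06-fold in small HSPs, 2.05-fold in HSP90, 2.02-fold in HSP70 and HSP110, 1.95-fold in DNAJ A, 1.84-fold in DNAJ C and 1.36-fold in the mitochondrial pair. These medians are over the tested members.

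**Figure D1:**
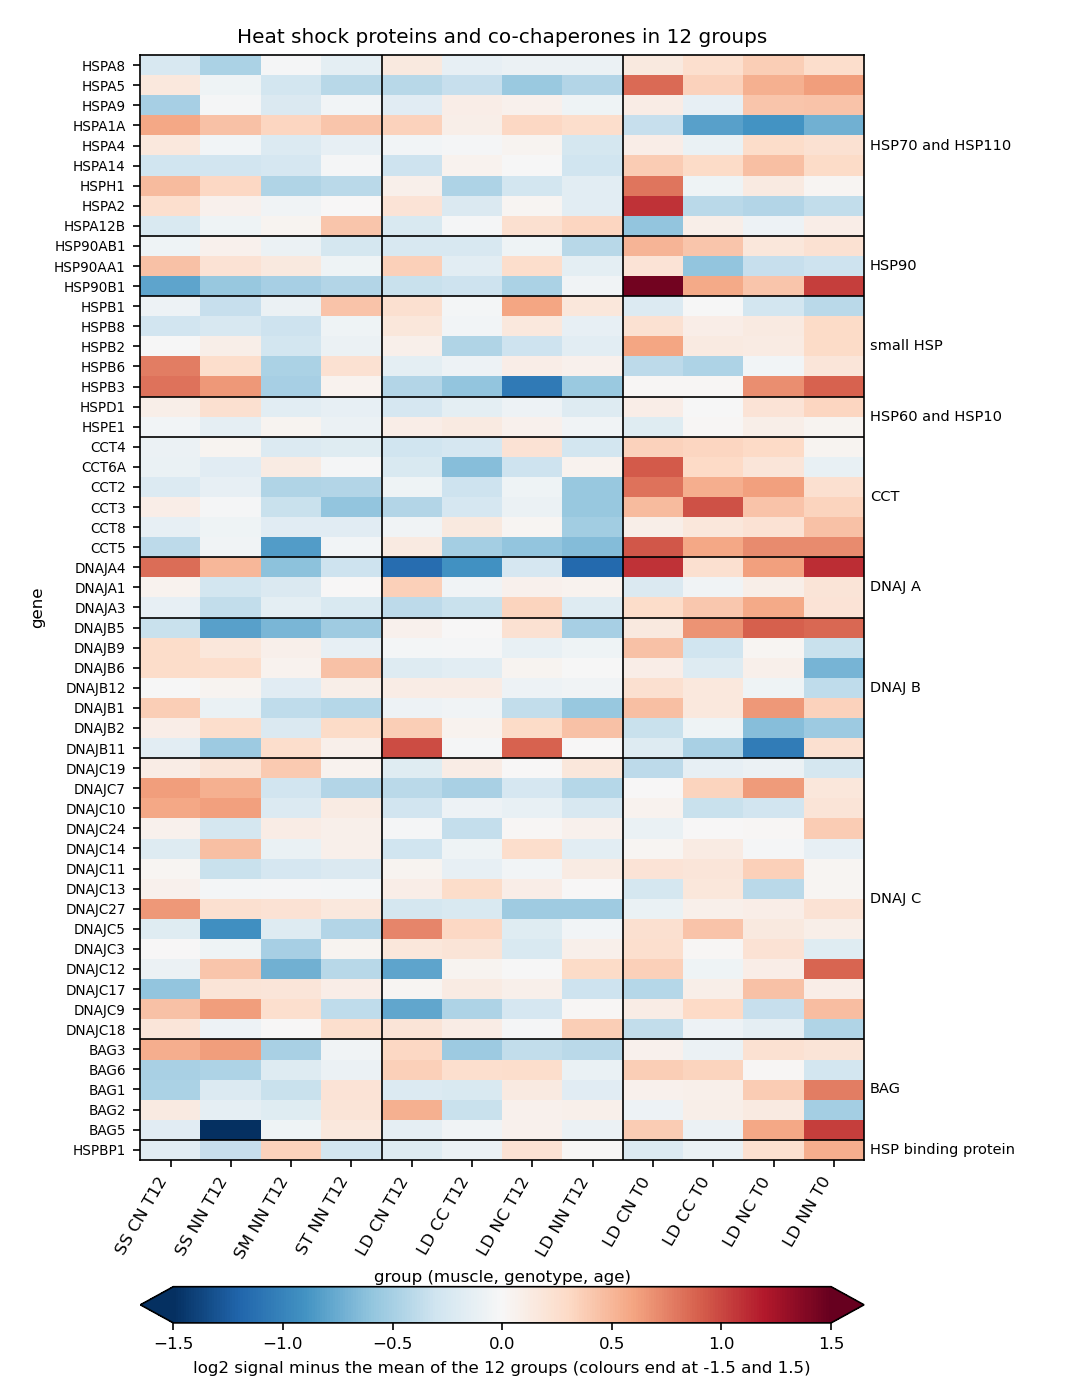
Heat map of the 55 tested members (rows, grouped by family) in the 12 groups (columns), coloured by log2 signal minus the mean of the 12 groups, with colours ending at -1.5 and 1.5. The 4 T0 groups at the right are mostly red for CCT, HSPA5, HSP90B1 and DNAJA4 and blue for HSPA1A, and DNAJA4, HSPB3, BAG3 and DNAJC7 are red in both SS groups at the left.

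Age gave the most calls, in the comparison with the most group values, 3 on each side. Counts of calls therefore do not rank the comparisons by size of change. In LD of CC, NC and NN lambs 16 of the 55 members changed between T12 and T0, 2 higher and 14 lower at T12. Over all tested probe sets 11.7% changed, 5.92% higher and 5.81% lower. That share was 16.7% of 11546 probe sets with a stricter filter on dim probe sets. With the mean over a gene's probe sets it was 17.9% of 5652 genes. The members' median difference was -0.22, against 0.06 over all tested probe sets, and 19 of 55 lay above 0, where 54.9% of all tested probe sets did. Median signal of the arrays was 53.6 to 58 at T12, against 50.1 to 52.9 at T0. The log2 ratio of GAPDH probe sets at the 3' end over the 5' end, a sign of RNA quality, was 0.04 to 0.25 at T12, against 0.13 to 0.31 at T0, and lower at T12 within each genotype. Of 9 marker lists of cell types and handling, 3 did not overlap between the ages, the immune list with 419 to 511 at T12, against 268 to 378 at T0, and the fibroblast and immediate early lists given below. Within the immune list 2 of 4 tested markers lay above 0 and 1 rose, CD3E. The part of these in the age differences was not tested. The arrays of the 2 ages did not overlap for 1 member that was higher (4.66% of all tested probe sets) and 12 that were lower (4.98%).

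Of the 9 HSP70 and HSP110 proteins 1 rose and 2 fell, the 2 being HSPA8 and HSPA5. HSPA1A, which is made in cells under heat or other stress, had signals of 1326 and 1673 in CC, 1528 and 1982 in NC and 1539 and 1849 in NN at T12. At T0 the signals were 736 and 863 in CC, 795 and 714 in NC and 834 and 861 in NN. All 6 arrays at T12 lay above all 6 at T0, and HSPA1A rose by 1.03 ± 0.11 (SE, adjusted p = 0.000476, limma), a 2.05-fold difference. HSPA1A has 6 probe sets. Of the 5 others, which are dimmer, 1 rose as well (0.86, adjusted p = 0.00856), and the rest were at 0.48, 0.36, -0.02 and -0.92 without passing. The mean over all 6 gave 0.30 and did not pass (adjusted p = 0.217). Mammals carry a near-identical copy of this gene, whose RNA these probes may not separate. Immediate early genes, which respond to handling and tissue stress within minutes, summed over 8 markers to signals of 6899 to 17171 at T12, against 4743 to 6269 at T0, with FOS and JUN higher and MYC lower. Their part in the HSPA1A difference was not tested.

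HSPA8 fell by 0.39 on the log2 scale (SE 0.09, adjusted p = 0.0147, limma), with group values of 5055 in CC, 5201 in NC and 5200 in NN at T12, against 6565, 7110 and 6619 in the same genotypes at T0. The groups did not overlap on any array. HSPA14, an HSP70-like protein found at the ribosome, was at -0.42 and did not pass (adjusted p = 0.0553). The mitochondrial HSPA9, the exchange factor HSPA4 and its relative HSPH1 were at -0.20, -0.22 and -0.33, none passing, but a second probe set of HSPA4, with group values of 334 to 1062, was at -1.03 (adjusted p = 0.00471). Among the rest, HSPA2 was at 0.29 and HSPA12B, an endothelial member, at 0.14.

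The chaperones of the endoplasmic reticulum, where secreted and membrane proteins fold, included 2 falls. HSPA5, its HSP70 protein, had 1991 and 2396 in CC, 1709 and 2069 in NC and 1871 and 2212 in NN at T12, against 3302 and 3707 in CC, 4025 and 3966 in NC and 4129 and 4428 in NN at T0. No T12 array reached the lowest T0 array, and HSPA5 fell by 0.95 (SE 0.11, adjusted p = 0.000679, limma). A second probe set fell by 0.90 (adjusted p = 0.00124). Another was dim (highest group value 48.5), and with all 3 averaged the difference was -0.27 and did not pass (adjusted p = 0.439). HSP90B1 fell by 0.95 (SE 0.17, adjusted p = 0.00515), with group values of 743, 666 and 893 in CC, NC and NN at T12, against 1374, 1232 and 1898 at T0. Its arrays at T0 were uneven, with 762 and 1991 in NC, so the ages overlapped there, and without the second NC array at T0 it was at -0.72 and did not pass (adjusted p = 0.12). None of the J-domain proteins of this compartment passed. DNAJB9 was at 0.14, DNAJC3 at -0.00, DNAJC10 at 0.00 and the dim DNAJB11 at 0.72.

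Other genes of folding in the endoplasmic reticulum and its stress response, outside the member rule, were set beside these. Of 14 listed, 11 were tested, and 5 fell and 2 rose, with a median of -0.62. The falls were CALR (-0.91), which holds glycoproteins, PDIA3 (-0.62) and P4HB (-0.64), which form disulphide bonds, MANF (-1.03, adjusted p = 0.00216) and CRELD2 (-1.46). CRELD2 was dim at T12, at 58.6, 20.5 and 42.7 in CC, NC and NN, where array medians were 53.6 to 58. ATF4, a transcription factor of the stress response, rose by 0.71 and HERPUD1, which helps to degrade misfolded proteins, by 0.60. Collagens are folded in the same compartment. Of 6 fibroblast and matrix markers 2 fell, COL1A1 (-1.49, adjusted p = 0.000924, limma) and COL1A2. Of the 6, 1 lay above 0, and their median was -0.15. COL3A1 had group values of 21060, 18231 and 18824 in CC, NC and NN at T12, against 18375, 20836 and 19390 at T0. The 6 fibroblast and matrix markers summed to signals of 38549 to 53034 at T12, against 57872 to 68844 at T0. Their part in these differences was not tested.

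HSP90 in the cytosol has a pair of forms. The constitutive HSP90AB1 fell by 0.51 (SE 0.11, adjusted p = 0.0149, limma), with group values of 3317 in CC, 3750 in NC and 2949 in NN at T12, against 5234, 4422 and 4598 at T0, without overlap. The inducible HSP90AA1 lay on the other side of 0, at 0.40, and did not pass (adjusted p = 0.0788). Its second probe set was at 0.76 with an adjusted p of 0.0106. Of 12 tested partners of HSP90, 2 fell, the phosphatase PPP5C (-0.47) and the mitochondrial HSP90 protein TRAP1 (-0.53), and 0 rose. Of 9 partners of HSP70, such as the ubiquitin ligase STUB1 and the adaptor STIP1, 0 passed, with a median of -0.11. Of 3 genes listed for the control of heat shock genes 2 were measured, the transcription factors HSF1 and HSF2. HSF2 fell by 0.54 (adjusted p = 0.0199) while HSF1 was at 0.26 and did not pass.

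All 6 measured subunits of the chaperonin CCT lay below 0, with a median of -0.60, and 3 of them fell. CCT5 had signals of 966 and 732 in CC, 759 and 825 in NC and 675 and 862 in NN at T12, against 1988 and 1616 in CC, 2077 and 1851 in NC and 1837 and 2084 in NN at T0. The lowest T0 array was above every T12 array. CCT5 fell by 1.25 (SE 0.10, adjusted p = 0.000161, limma), to 0.419 of its T0 level, and it passed in all 10 alternative settings and all 24 fits without an array. CCT3 fell by 0.87 (SE 0.17, adjusted p = 0.00825), with group values of 1775, 1984 and 1422 in CC, NC and NN at T12, against 4093, 2847 and 2650 at T0. CCT2 fell by 0.78 (adjusted p = 0.00638), but its arrays within a group were further apart, as in NC at T12 with 2596 and 1638, and without the second of those it was at -0.67 (adjusted p = 0.0639). CCT6A, CCT8 and CCT4 were at -0.42, -0.40 and -0.33 without passing. They were among 27 of the 55 members with an unadjusted p under 0.05, where 26.4% of all tested probe sets had one. The ring holds 8 kinds of subunit, and CCT7 and CCT1 (TCP1) were not analysed here. Prefoldin, which hands actin and tubulin to the ring, showed no called subunit among 5 tested, with a median of 0.05.

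**Figure D2:**
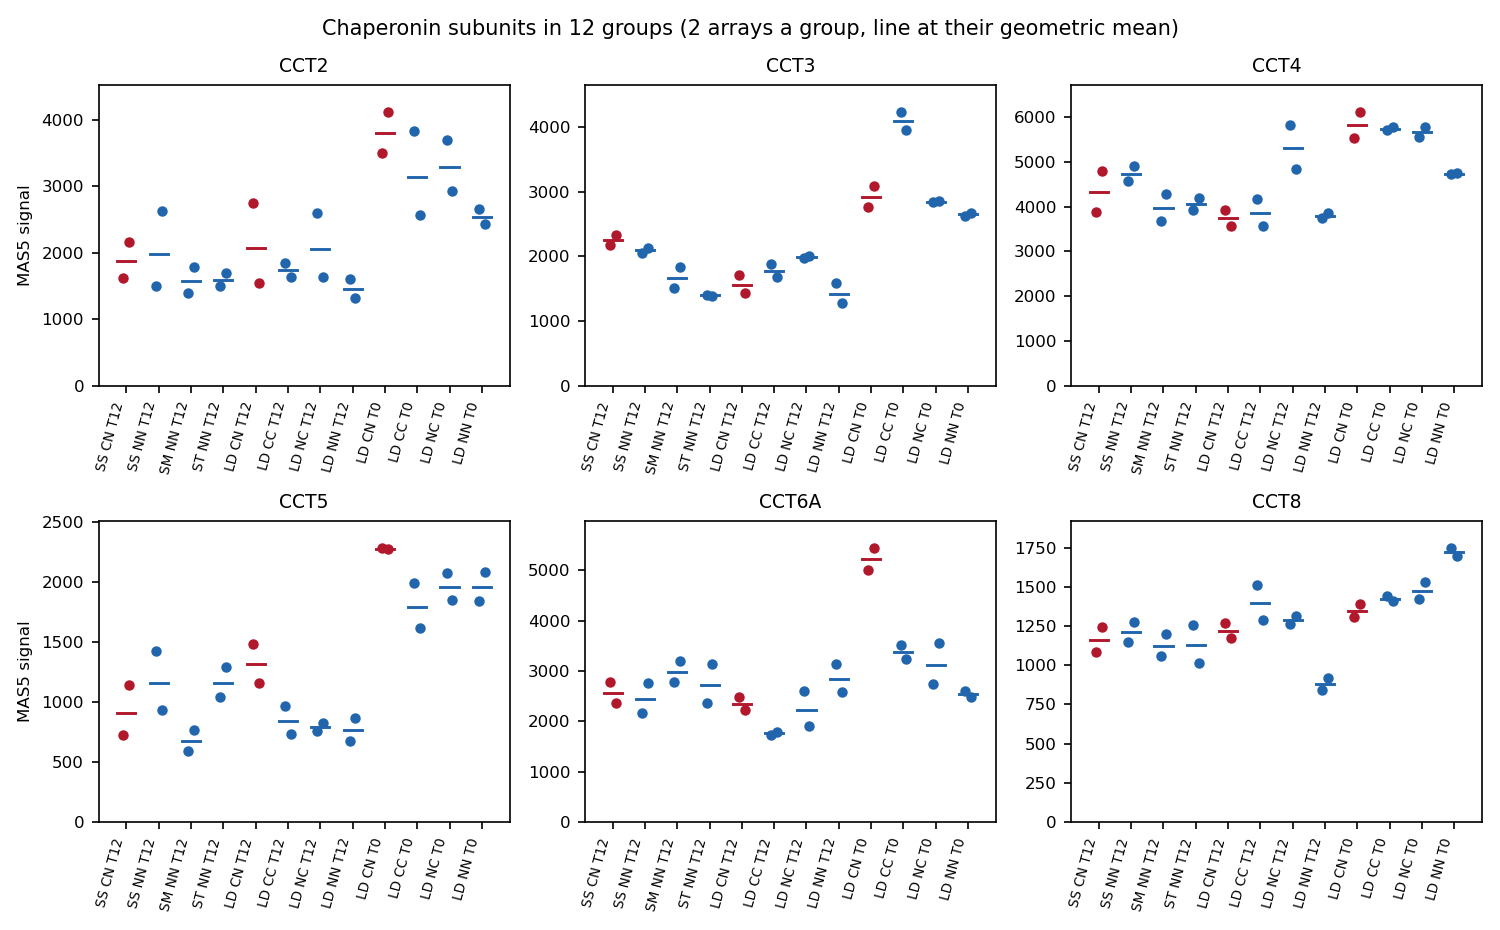
Signals of the 6 measured CCT subunits (MAS5 signal, linear, from 0) in the 12 groups, with each array as a point, the geometric mean of the 2 arrays as a line, CN in red and the other genotypes in blue. All 4 T0 groups of CCT5 lie above every T12 group, and CN at T0 is the highest group of CCT2, CCT4, CCT5 and CCT6A.

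In the small heat shock family the sharpest fall was that of HSPB3, a muscle protein that forms a complex with HSPB2. Its signals at T12 were 541 and 748 in CC, 437 and 484 in NC and 661 and 639 in NN, against 1011 and 925 in CC, 1632 and 1486 in NC and 1679 and 1855 in NN at T0. The ages did not overlap, although CC at T0 lay well below NC and NN. HSPB3 fell by 1.27 (SE 0.21, adjusted p = 0.00411, limma). HSPB2 fell by 0.49 (adjusted p = 0.0192) with overlap between single arrays. Its call ended without the second array of NC at T0 (-0.42, adjusted p = 0.0768), of NC at T12 (-0.44, 0.0661) or of NN at T12 (-0.45, 0.0543). HSPB1, which protects actin filaments, was at 0.47 and did not pass (adjusted p = 0.0762), with 20232, 31276 and 23277 in CC, NC and NN at T12, against 20610, 17135 and 15613 at T0. HSPB6 and HSPB8 were at 0.14 and -0.17. The related CRYAB, outside the member rule, was at -0.09.

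Among J-domain proteins of classes A and B, DNAJA4 fell by 1.43 (SE 0.25, adjusted p = 0.00497, limma). Its arrays read 231 and 236 in CC, 350 and 384 in NC and 128 and 298 in NN at T12, against 564 and 473 in CC, 752 and 600 in NC and 940 and 942 in NN at T0, with no overlap. DNAJA1 and DNAJA3 were at -0.06 and -0.46 without passing. DNAJB5 fell by 0.90 (adjusted p = 0.00644), with 1699, 1995 and 1197 in CC, NC and NN at T12, against 2698, 3154 and 3071 at T0. DNAJB1, the main stress-inducible partner of HSP70, fell by 0.71 (adjusted p = 0.0312), with group values of 229, 184 and 160 in CC, NC and NN at T12, against 265, 372 and 302 at T0. It did not pass without the first array of CC at T0 (-0.63, adjusted p = 0.0903), the second of CC at T12 (-0.67, 0.0638) or the second of NC at T12 (-0.69, 0.0603). HSPA1A, the other stress-inducible gene of this pair, had risen.

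DNAJB2, which passes client proteins to the proteasome, was the second gene to rise, by 0.68 (SE 0.19, adjusted p = 0.042, limma), with 242, 287 and 319 in CC, NC and NN at T12, against 224, 151 and 160 at T0. Its arrays overlapped in CC, and the call ended in 8 of the 24 fits without an array. These were the fits without the second CC, the first NC or the second NN array at T0, the first CC array at T12, or any NC or NN array at T12, with values of 0.59 to 0.72 and adjusted p of 0.0516 to 0.141. Of the 14 tested class C proteins 1 fell. DNAJC7, which binds HSP70 and HSP90 at once, fell by 0.77 (SE 0.14, adjusted p = 0.00549), with 710, 838 and 739 in CC, NC and NN at T12, against 1252, 1552 and 1117 at T0 and no overlap. Its other probe set fell by 1.29 (adjusted p = 0.000637). DNAJC27 was at -0.56, also without overlap, and missed the threshold (adjusted p = 0.0523).

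BAG3 joins HSP70 to HSPB8 and carries damaged filamin from the Z disc to autophagy. It fell by 0.55 (SE 0.12, adjusted p = 0.0135, limma), with arrays at 849 and 837 in CC, 913 and 995 in NC and 965 and 900 in NN at T12, against 1122 and 1193 in CC, 1366 and 1526 in NC and 1367 and 1447 in NN at T0. No array crossed between the ages. Of 4 listed partners of BAG3, 3 were measured and tested, and these 3 moved the other way. They were the autophagy receptor SQSTM1 (0.81), the client FLNC (0.73) and SYNPO (0.84, adjusted p = 0.00176). The partner SYNPO2 was not measured. The other tested BAG proteins did not pass, with BAG1 at -0.49, BAG2 at 0.03, BAG5 at -0.54 and BAG6 at 0.11. HSPBP1, which removes nucleotide from HSP70, was at -0.18.

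The age calls kept their direction but not all their side of the threshold in other settings. Without the intensity trend CCT5, HSPA1A and HSPA5 were the 3 that passed (1.53% of all tested probe sets did). With NC left out the calls ended for HSPA8 (-0.36, adjusted p = 0.177), HSP90AB1 (-0.65, 0.0538), HSPB3 (-1.02, 0.0759), HSPB2 (-0.52, 0.142), DNAJB1 (-0.56, 0.263), DNAJB2 (0.55, 0.293), DNAJC7 (-0.71, 0.0548) and BAG3 (-0.53, 0.133). With NN left out they ended for HSPA8 (-0.41, adjusted p = 0.0889), HSP90AB1 (-0.45, 0.105), DNAJA4 (-1.01, 0.0509), HSPB2 (-0.51, 0.0704), DNAJB1 (-0.61, 0.183), DNAJB2 (0.52, 0.266) and BAG3 (-0.53, 0.0977). With CC left out those of HSP90AB1 (-0.44, adjusted p = 0.0672) and HSPB2 (-0.44, 0.0693) ended, and with the mean over its probe sets that of DNAJB5 (-0.94, 0.0955). Calls were also gained. HSPB1 passed with CC left out (0.72, adjusted p = 0.00988) and with quantile normalization (0.54, 0.0211). It passed in 3 of the 10 settings, and over these and the fits without an array it ranged from 0.17 to 0.72. HSP90AA1 passed with quantile normalization (0.45, 0.0423) and with the mean over its probe sets (0.58, 0.0097).

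**Figure D3:**
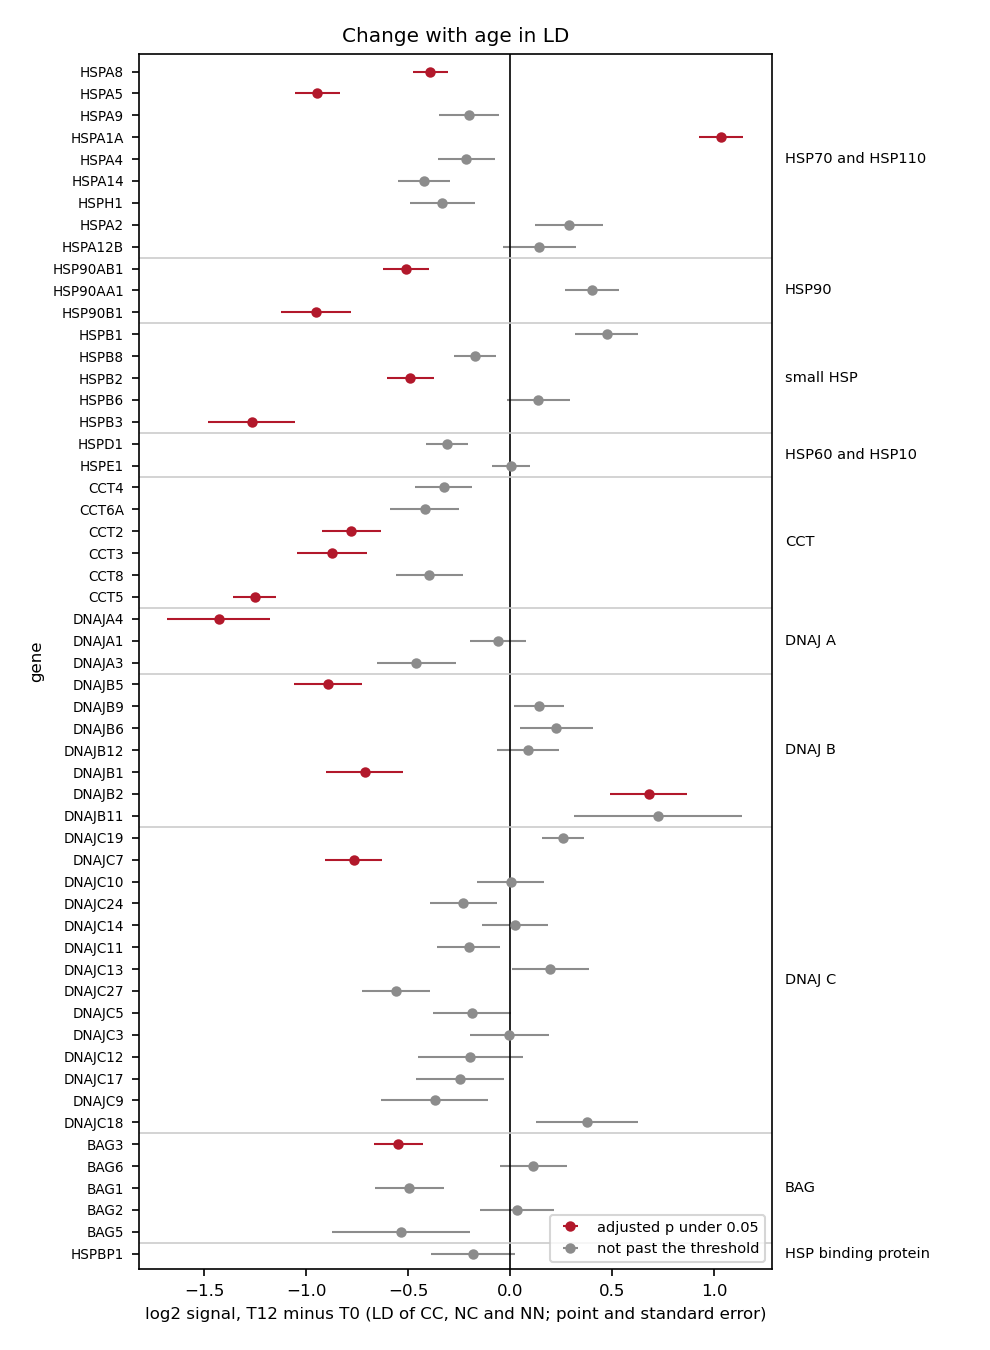
Log2 difference between T12 and T0 in LD of CC, NC and NN for the 55 tested members, with the point at the limma estimate and the bar its standard error, in red where the adjusted p was under 0.05. HSPA1A and DNAJB2 are the red points right of 0, at 1.03 and 0.68, and the other 14 red points lie between -1.43 and -0.39.

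The callipyge genotype was compared with the other 3 genotypes in LD, 1 group value against 3. At T0, 1 of 55 members passed, against 0.173% of all tested probe sets (0.128% higher in CN). HSPA2, an HSP70 protein best known from its role in sperm formation in the mouse, had 344 and 338 in CN, against 98.2 and 151 in CC, 170 and 81.9 in NC and 131 and 118 in NN. Both CN arrays stood at about the same level and far above all 6 others, and HSPA2 rose by 1.49 ± 0.23 (SE, adjusted p = 0.0471, limma), or 2.81-fold with a 95% interval of 0.97 to 2.00 on the log2 scale. The call is close to the threshold. It held in 13 of the 24 fits without an array and ended without any array of CC, NC or NN at T0, any array of CC or NN at T12 or the second of NC at T12, with values of 1.31 to 1.66 and adjusted p of 0.055 to 0.099. It also ended with quantile normalization (1.46, adjusted p = 0.0531), without the intensity trend (0.139), and with NC (0.221) or NN (0.123) left out.

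At an unadjusted p under 0.05 there were 11 members at T0 (20%), where 11.7% of all tested probe sets had one. The arrays of CN lay above all others for 9 members (8.45% of all tested probe sets) and below them for 4 (9.71%). Apart from HSPA2 none of the following passed the adjusted threshold, and those beyond the first 3 by p were chosen after their values were seen. CCT6A had 5007 and 5435 in CN, against 3524 and 3229 in CC, 2745 and 3559 in NC and 2594 and 2485 in NN, at 0.80 ± 0.24 (adjusted p = 0.18). DNAJB9, which binds HSPA5 in the endoplasmic reticulum, had 1749 and 1562 in CN, against 830 to 1394 on the 6 other arrays (0.65, adjusted p = 0.145). HSP90AA1 had 4149 and 3938 in CN, against 2259 to 3101 (0.62, adjusted p = 0.195), and its second probe set was at 0.67. Both CN arrays of these 3 genes were above every other array.

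HSPA1A had 1150 and 1067 in CN at T0, against 714 to 863 on the other arrays (0.47, adjusted p = 0.233), but the mean over its 6 probe sets had the opposite sign (-0.33). HSPA5 had 5077 and 4870, against 3302 to 4428 (0.35, adjusted p = 0.414), with 0.57 on its second probe set (adjusted p = 0.179). For HSPH1 and HSP90B1 the 2 CN arrays disagreed. They read 497 and 238 for HSPH1, against 171 to 260 on the others (0.77, adjusted p = 0.185), and 3360 and 1882 for HSP90B1, against 762 to 1991 (0.77, adjusted p = 0.215). HSPB2 was at 0.41. On the low side, DNAJB5 had 1644 and 2159 in CN, against 2680 to 3367 (-0.66, adjusted p = 0.29), and HSPA12B had 104 and 88.5, against 117 to 167 (-0.63, adjusted p = 0.357). The CN arrays at T0 had the lowest median signals, 48.1 and 47.4, against 50.1 to 52.9 on the other T0 arrays. The 5 slow fibre markers summed to 61234 to 69605 in CN at T0, against 74854 to 91775. The 6 endothelial markers summed to 1936 to 2006 in CN, against 2184 to 2616, the 6 fibroblast and matrix markers to 44892 to 49354, against 57872 to 68844, and the 4 red blood cell markers to 146 to 176, against 194 to 407. The other 5 marker lists overlapped. The part of these in the CN values was not tested.

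**Figure D4:**
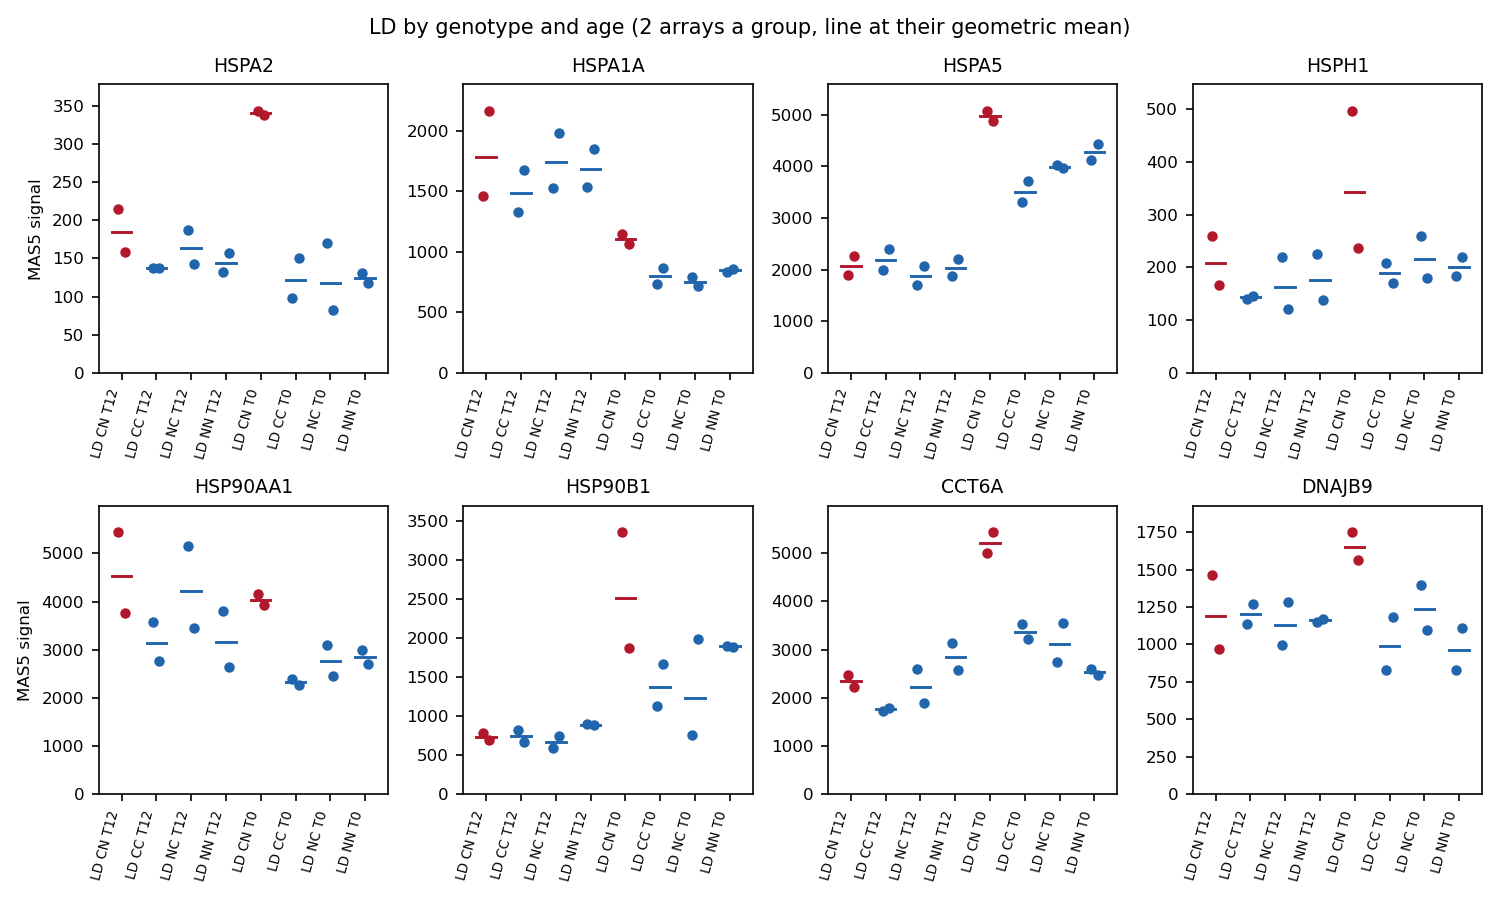
Signals of 8 members in LD by genotype and age (MAS5 signal, linear, from 0), with each array as a point, the geometric mean of the 2 arrays as a line, CN in red and CC, NC and NN in blue. All 8 had a CN difference above 0 at T0, as 30 of the 55 tested members did. The 4 members whose CN arrays lay below all others at T0 (CCT8, DNAJB5, HSPA12B and HSPA8) are not shown. For HSPA2 both CN points at T0, 344 and 338, stand above all other LD arrays, the highest of which is 215, while for HSPH1 and HSP90B1 the 2 CN points at T0 lie far apart.

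At T12, when the muscles of CN lambs are enlarged, 0 of 55 members passed with limma, against 0.179% of all tested probe sets. In the fit of 24 single arrays with an estimated correlation between the arrays of a group 2 passed, against 1.73% of all tested probe sets. That fit takes the technical arrays as separate values, so its calls rest on no more groups. In the fit of group values 6 members had an unadjusted p under 0.05 (10% of all tested probe sets had one). CCT5 had 1486 and 1158 in CN, against 966 and 732 in CC, 759 and 825 in NC and 675 and 862 in NN, at 0.72 ± 0.15 (adjusted p = 0.0842). BAG3 had 1668 and 1403 in CN, against 837 to 995 on the 6 other arrays, at 0.75 ± 0.17 (adjusted p = 0.123). DNAJC5, a synaptic vesicle chaperone, had 276 and 278, against 138 to 212, at 0.70 ± 0.27 (adjusted p = 0.398). In all 3 genes both CN arrays were above every other array. That was so for 5 members in all, with BAG2 and HSPA8 (5.14% of all tested probe sets), and the reverse for DNAJC9 and DNAJC14 (7.56%).

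Others with an unadjusted p under 0.05 at T12, named after their values were seen, were BAG2 at 0.60, which turned to -0.26 as the mean over all its probe sets, HSPB2 at 0.38 and DNAJC12 at -0.90, with uneven CN arrays of 36.1 and 114. HSPA8 was at 0.25. The 5 slow fibre markers summed to 54322 to 57451 in CN at T12, against 80690 to 106123 in CC, NC and NN, with TNNT1 at -0.97 (adjusted p = 0.0366). The fibroblast and matrix markers summed to 28631 to 33043 in CN, against 38549 to 53034, the 5 measured immune markers to 271 to 349, against 419 to 511, and the 2 measured nerve and satellite cell markers to 217 to 250, against 280 to 490. Of these 2, S100B and NCAM1, 1 passed the filter on dim probe sets. S100B made up most of that sum, with group values of 210 in CN, against 267, 413 and 255 in CC, NC and NN. Median signal was 49.6 and 51.6 on the CN arrays, against 53.6 to 58. The GAPDH ratio was -0.03 and 0.08 in CN, against 0.04 to 0.25. Their part in the CN values was not tested.

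The CN difference at T12 was set against that at T0 in 1 test, and 0 members passed with limma (0% of all tested probe sets), with 8 at an unadjusted p under 0.05 (8.94%) and 1 passing in the fit of single arrays (1.1%). The 3 of smallest p were HSPA2 at -1.17 ± 0.33 (adjusted p = 0.337), BAG3 at 0.80 ± 0.24 (0.369) and DNAJB9 at -0.61 (0.491). BAG3 in CN read 1668 and 1403 at T12 and 1311 and 1267 at T0, so the CN arrays did not share the lower level that the other genotypes had at T12. A difference between the ages was not shown for these genes by that test.

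In SS, a muscle that the callipyge trait leaves largely unchanged, 1 CN value was set against 1 NN value, with the spread taken from LD. With limma 0 members passed (0% of all tested probe sets), and 3 had an unadjusted p under 0.05 (4.17%). These were BAG5 at 1.45, which rests on the dim array of 5.70 in NN and turned to -0.15 without it, DNAJC14 at -0.65 and DNAJC5 at 0.73, which turned to -0.66 as the mean over its probe sets. BAG3 had 1912 and 1703 in CN and 2207 and 1658 in NN, and CCT5 had 724 and 1140 in CN and 1427 and 935 in NN, so both overlapped. Fast fibre markers summed to 127142 to 137447 in SS of CN, against 117437 to 119601 in NN, and immediate early markers to 9553 to 9981, against 7293 to 7648. Adipocyte sums were 545 to 711, against 718.5 to 739, and red blood cell sums 89.5 to 102, against 33 to 83.8. Nerve and satellite cell sums, mostly S100B, were 236 to 274, against 286 to 377.5. Their part in the SS values was not tested. The CN difference in LD minus that in SS gave 0 calls with limma (0%) and 2 at an unadjusted p under 0.05 (4.96%), CCT5 at 1.06 ± 0.23 (adjusted p = 0.404) and BAG3 at 0.84 ± 0.27 (adjusted p = 0.762).

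Muscles without the callipyge genotype were compared at T12. SS of NN was set against LD of CC, NC and NN, and 3 of 55 members passed, all higher in SS, against 2.97% of all tested probe sets (1.43% higher). BAG3 had 2207 and 1658 in SS, against 837 to 995 on the 6 LD arrays, and rose by 1.08 ± 0.17 (SE, adjusted p = 0.00657, limma), or 2.11-fold. DNAJC7 had 1436 and 1456 in SS, against 664 to 956 in LD, and rose by 0.93 ± 0.20 (adjusted p = 0.03), while its other probe set rose by 2.18 ± 0.21 (adjusted p = 0.000353). HSPB3 had 1327 and 1699 in SS, against 437 to 748 in LD, and rose by 1.38 ± 0.30 (adjusted p = 0.0353). For all 3 no array of LD reached an array of SS. This was so for 14 members in all (11.1% of all tested probe sets), among them HSPA5, HSPH1, HSPD1 and CCT3, and the reverse for 7 (9.9%), among them HSPB1 and HSPB8, all named after their values were seen. Of these, HSPB1 turned above 0 as the mean over its probe sets. At an unadjusted p under 0.05 there were 18 members, against 15.8% of all tested probe sets.

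The BAG3 call held in all 24 fits without an array. The DNAJC7 call ended without the second array of NN at T0 (0.93, adjusted p = 0.0538) or of NC at T12 (0.86, adjusted p = 0.105), and the HSPB3 call without the first of CC at T0 (1.38, 0.0508), the first of CC at T12 (1.31, 0.0713) or the second of NC at T12 (1.41, 0.0567). The DNAJC7 call also ended with CC (0.88, adjusted p = 0.0604) or NN of LD (0.91, 0.0565) left out, and the HSPB3 call with NC left out (1.22, 0.124). Without the intensity trend all 3 ended, with adjusted p of 0.122, 0.206 and 0.221 for BAG3, DNAJC7 and HSPB3. The count of 3 became 1 without the second array of NC at T12 and 5 without the second of SS NN. These LD arrays at T12 are the same that gave the falls of BAG3, DNAJC7 and HSPB3 with age, at -0.55, -0.77 and -1.27.

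Below the threshold, and chosen after their values were seen, DNAJA4 had 624 and 610 in SS, against 128 to 384 in LD (1.27, adjusted p = 0.0937), and CCT5 was at 0.53 (0.0875). DNAJC10, a disulphide reductase of the endoplasmic reticulum, had 568 and 578, against 305 to 392 (0.75, 0.12). DNAJC5 had 71.6 and 109, against 138 to 212 (-0.95, 0.097), and HSPA8 had 3955 and 3998, against 4789 to 5337 (-0.37, 0.149). BAG5 was at -1.59 and turned to 0.0031 without its array of 5.70. All 6 CCT subunits lay above 0, with a median of 0.17, where 51.7% of all tested probe sets did, and 0 passed. CCT2, CCT6A and CCT8 turned below 0 in at least 1 fit without an array. Of the listed partners, the prefoldin subunit PFDN2 rose by 0.87 (adjusted p = 0.0135) and ATF4 was at -0.87 (adjusted p = 0.0208). The partners of BAG3 did not rise with it, with FLNC at -1.13 (adjusted p = 0.0706), SQSTM1 at -0.29 and SYNPO at -0.17. The 5 slow fibre markers summed to 136212 to 142052 in SS of NN, against 80690 to 106123 in LD of CC, NC and NN, and the 5 fast fibre markers to 117437 to 119601, against 134626 to 169001. The 6 endothelial markers summed to 1865 to 1950 in SS, against 2215 to 2983 in LD, the 4 measured adipocyte markers to 718 to 739, against 218 to 585, and the 4 red blood cell markers to 33 to 83.8, against 96.4 to 219. Of the adipocyte markers ADIPOQ rose by 1.71 (adjusted p = 0.0354). The GAPDH ratio was 0.02 and 0.06 in SS, against 0.04 to 0.25 in LD. Their part in these differences was not tested.

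SS was also set against the hind limb muscles in NN. BAG3 was the 1 member that passed (0.999% of all tested probe sets), with 2207 and 1658 in SS, against 822 and 939 in SM and 1208 and 1169 in ST (0.90 ± 0.18, adjusted p = 0.0439, limma). The groups did not overlap. The call ended in 12 of the 24 fits without an array: the second of CC at T0, the first of NC at T0, any of NN at T0, any of CC, NC or NN at T12, the first of SM and the first of SS, where the value was 0.70. In these fits the adjusted p was 0.05 to 0.0882. DNAJC7 had 1436 and 1456 in SS, against 734 and 905 in SM and 681 and 795 in ST, at 0.90 ± 0.21 (adjusted p = 0.0878), and its other probe set rose by 1.60 (adjusted p = 0.00735). BAG5 was at -1.67 (adjusted p = 0.202). The BAG3 call also ended without the intensity trend (adjusted p = 0.283) and with NC (0.138) or NN of LD (0.091) left out. Fast fibre sums were 117437 to 119601 in SS, against 134103 to 160321 in SM and ST, and the GAPDH ratio was 0.02 and 0.06, against 0.11 to 0.22. Endothelial sums were 1865 to 1950 in SS, against 1967 to 2960, and red blood cell sums 33 to 83.8, against 129 to 212. Slow fibre sums were 136212 to 142052 in SS, against 92521 to 136156, so the highest SM array was almost level with SS. The part of these was not tested.

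Chosen after their values were seen, HSPB3 had 613 and 754 in SM and 822 and 1209 in ST, and SS was above it by 0.87 (adjusted p = 0.308). HSPH1 was at 0.73 (0.248) and HSPA8 at -0.40 (0.246). SM and ST together against LD gave 0 calls with limma (0.0448% of all tested probe sets) and 3 at an unadjusted p under 0.05 (7.33%), DNAJC27 at 0.62 (adjusted p = 0.465), DNAJB5 at -0.52 (0.555) and DNAJC12 at -0.67 (0.655). In the F test over all 4 muscles BAG3 was the 1 member that passed (adjusted p = 0.0345, limma, 1.29% of all tested probe sets), with group values of 1913 in SS, 878 in SM, 1189 in ST and 908 over the 3 LD groups. That call ended without the second array of CC at T0, NC at T12 or NN at T12, or the first of NC at T0 or SS, with adjusted p of 0.0547 to 0.0677. CCT5 (adjusted p = 0.0723) and DNAJC7 (adjusted p = 0.122) were next.

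**Figure D5:**
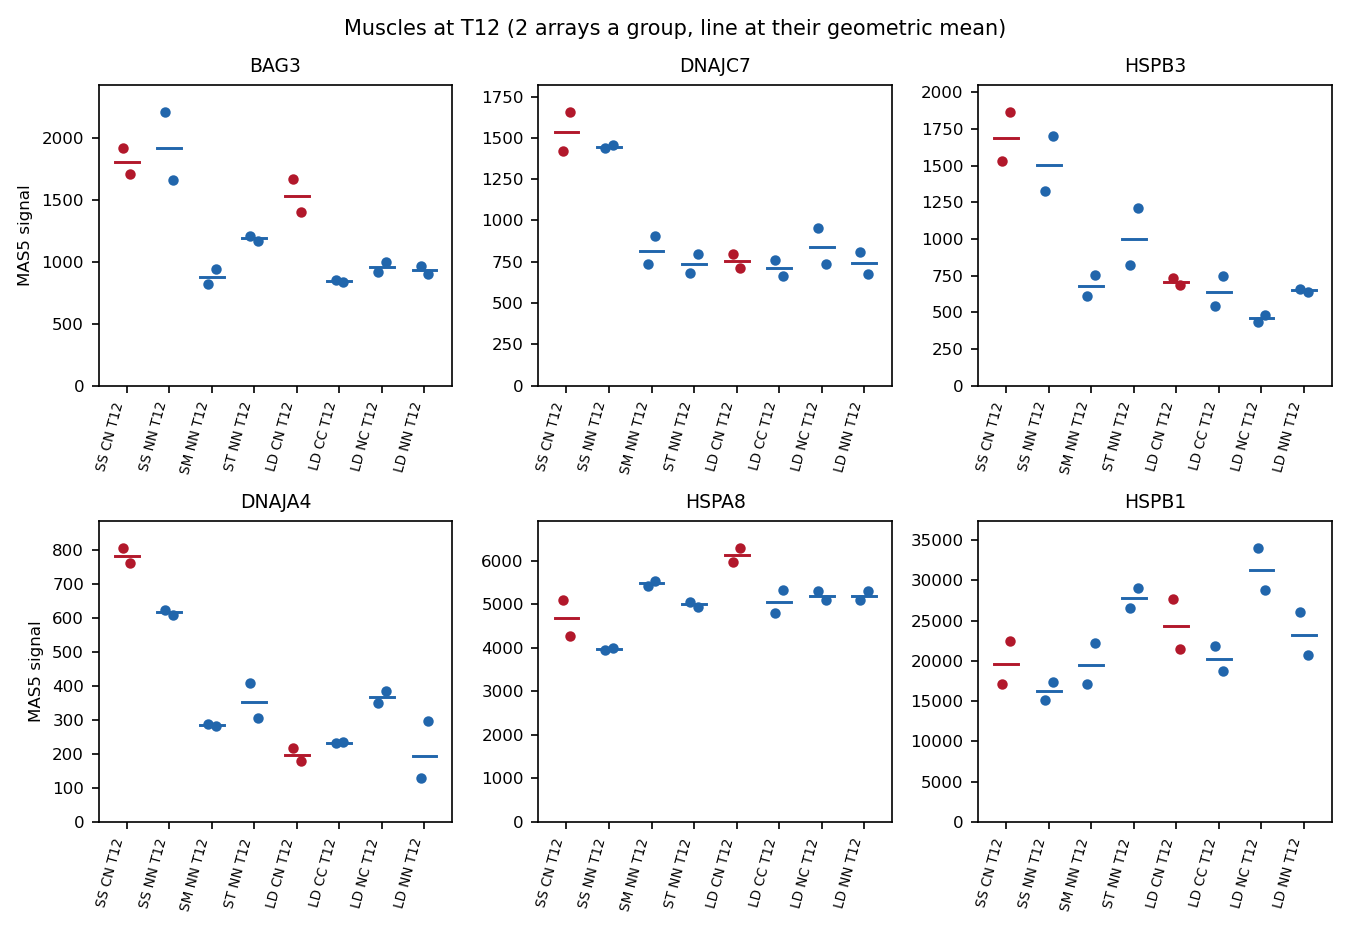
Signals of 6 members in the 8 groups at T12 (MAS5 signal, linear, from 0), with each array as a point, the geometric mean of the 2 arrays as a line, CN in red and the other genotypes in blue. BAG3, DNAJC7, HSPB3 and DNAJA4 are highest in the 2 SS groups, and BAG3 in LD of CN, at 1668 and 1403, stands above LD of CC, NC and NN.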

How the data were processed

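The deposited values are one linear intensity per probe set and array, made with MAS5, per the submitters' processing notes. Its version was not stated in them. The 2% trimmed mean of the non-control and control probe sets was 200.08 to 200.093 on every array, so the arrays share one scale. Of 579072 values, 5477 were at or below 1. Values under 1 were set to 1 before log2 was taken. Saturation and detection calls were not used here, and the number of arrays limits the precision.

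Of 24128 probe sets, 112 controls were left out, and the 15613 whose mean log2 signal in 1 or more groups exceeded that group's median were tested. Gene names come from the platform annotation of 2016 (13318 probe sets with 1 symbol, 86 with several, 10724 with none). One probe set shared by DNAJC2 and another gene was therefore not a member. Of the 59 members 57 occur in the RefSeq gene table of sheep. Bovine probes may bind sheep RNA unevenly, so levels of different genes were not compared.

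Tests used limma 3.58.1 in R 4.3.3 (lmFit, eBayes with intensity trend, two-sided, Benjamini-Hochberg) on 12 group values in 8 cells, with CC, NC and NN of LD as 3 values of a cell at each age. This leaves 4 residual degrees of freedom (prior 6.88), and a group with 1 value is assumed to vary like those genotypes. The comparisons share groups. The fit was tested on simulated data for the age comparison alone, with the spread taken from the LD groups. Comparisons that hold a group with 1 value were not tested in this way.

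The rule for naming genes took from each comparison the members past the threshold, at most 6 in each direction, or the 3 of smallest p, and from each family those of highest signal and widest range. Others were named, where stated or where more passed with age, after their values were seen. The members and lists were chosen with earlier results of these data known. Of the lists, alpha crystallins (CRYAB, CRYAA) and mitochondrial proteases (CLPP) had 0 calls in each comparison of 2 conditions. Alternatives were quantile normalization, other filters, a pseudocount of 16, the mean over a gene's probe sets, no intensity trend, single arrays with duplicateCorrelation, leaving out a genotype or an array and, added after the data were seen, genotype as a block for age.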

Additional observations from a re-analysis of the deposited data

How the results depend on the processing

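Counts of members that passed depended on the setting, and the share of all tested probe sets that passed in the same fit stands beside each as a percent. The fit of 24 single arrays takes technical arrays as separate values, so its higher counts rest on no more groups. With 24 single arrays and duplicateCorrelation the counts were 2 for CN in LD at T12 (1.73%, 0 as reported), 3 at T0 (3.76%, 1 as reported), 26 for age (18.4%, 16 as reported, all of which were among the 26), 1 for the change of the CN difference with age (1.1%, 0 as reported), 10 for SS against LD (7.39%, 3 as reported), 4 for SS against SM and ST (3.17%, 1 as reported) and 7 in the F test over muscles (5.72%, 1 as reported). Without the intensity trend they were 0 for CN at T0 (0%), 3 for age (1.53%), 0 for SS against LD (0.551%), 0 for SS against SM and ST (0.0256%) and 0 in the F test (0.0064%). With NC left out they were 0 for CN at T0 (0%), 8 for age (2.54%), 2 for SS against LD (1.39%), 0 for SS against SM and ST (0.448%) and 0 in the F test (0.422%). With NN of LD left out they were 0 (0.026%), 10 (4.63%), 3 (2.41%), 0 (0.624%) and 0 (1.01%) in the same order. With CC left out they were 2 for CN at T0 (1.77%) and 2 in the F test (1.38%). Quantile normalization gave 0 for CN at T0 (0.0448%), and the mean over a gene's probe sets 2 for SS against SM and ST (1.54%) and 2 in the F test (1.5%). The cause was not tested. Fits without an array gave 0 to 3 for CN at T12 (3 without the second CN array at T12), 0 to 3 for CN at T0 (3 without the second CN array at T0), 12 to 18 for age, 1 to 5 for SS against LD, 0 to 1 for SS against SM and ST, 0 to 2 in the F test and 0 to 0 in each other comparison.

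Among the members rerun by name, BAG5 turned sign without the second SS array of NN, ranging over the fits without an array from -0.15 to 3.05 for CN against NN in SS, -3.15 to 0.043 for LD minus SS and -3.19 to 0.0031 for SS against LD. With the mean over probe sets, DNAJC5 in SS (-0.66), BAG2 in CN at T12 (-0.26) and HSPA1A in CN at T0 (-0.33) turned. Over all 55 members more turned, 7 with age in at least 1 fit without an array, including DNAJC10 and DNAJC3, and 3 with the mean over probe sets, but 0 of them had passed. By replicate number, no paired analysis was possible because the 2 arrays of a group are technical and were averaged to 1 value, so their numbers pair nothing. The ages can be paired by genotype instead, and that fit, chosen after the data were seen, called 19 members (13.1%), the 16 reported among them.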
